A study of Mus musculus with 4 samples.

Results

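The genes described here encode the aminergic receptors, the cell surface receptors for serotonin, dopamine, adrenaline and noradrenaline, histamine and acetylcholine (muscarinic type). They were chosen by symbol alone, as the rows whose symbol begins with Htr and a digit, Adra1 or Adra2, or is one of the Drd, Adrb, Hrh and Chrm genes, and 24 of the 16051 rows of the gene table met that rule. Of 37 receptors in a list of these families written from general knowledge, the other 13 had no row and were not analysed here, among them Htr1a, Htr1b, Htr5a, Htr6, Htr7, Drd4, Drd5, Adra1b, Adra2c, Adrb1, Hrh2 and Chrm1. The cells were 3T3-L1 cells, a line of mouse embryonic fibroblasts that can be turned into adipocytes in culture, and they were differentiated with a hormone cocktail before treatment. Control cells received DMSO, the solvent, according to the study's methods, while the labels call them untreated. Treated cells received 100 μM risperidone, an antipsychotic drug, for 48 h. Each treatment was sequenced as 2 mRNA libraries, and every library was RNA pooled from 3 cultures, so that the spread between libraries does not show the spread between single cultures.

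Aminergic receptors carry the signals of small amine transmitters. Nearly all are G protein-coupled receptors: those coupled to Gs raise cyclic AMP, those coupled to Gi lower it, and those coupled to Gq switch on phospholipase C and release calcium, while Htr3a and Htr3b form a channel that opens when serotonin binds. In fat cells, the beta adrenergic receptors drive the breakdown of stored triglyceride through cyclic AMP, and the alpha2 adrenergic receptors oppose them. Risperidone is known to block Htr2a and Drd2 most tightly, and also binds Htr2c, Drd3, the alpha1 and alpha2 adrenergic receptors and Hrh1. The comparison asked which of these drug targets the cells expressed at all and whether their transcripts differed after treatment.

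The libraries held 15883712 to 16374119 estimated read counts, so that 3 counts, the most that a count of 0 allows, equalled 0.183 to 0.189 CPM, the unit of counts scaled to library size. Of 11 adipocyte markers, 4 had more than 3 counts in both control libraries (Fabp4, Lpl, Pparg and Plin1). Adipoq, Cebpa, Cidec, Slc2a4, Lep, Retn and Cfd had 0 to 5 counts in every library, and all 6 preadipocyte and fibroblast markers were present. Brown adipocyte markers amounted to 1 count in all. The labels mention retina, and the summed counts of the retina markers were 57 and 54 in control and 56 and 51 in risperidone libraries. All 13 kidney markers were highest in risperidone library 2, where they summed to 3462 counts against 105 and 92 in the controls and 71 in risperidone library 1.

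Few receptors were expressed, and none strongly. A receptor was taken as detected when it had more than 3 counts in each control library, and 5 of 24 (20.8%) were: Htr3a, Chrm4, Adra1d, Htr2a and Adra2a. The same limit was passed by 74.2% of all rows in the table. In FPKM, which divides the count by transcript length and library size, 0 of the 24 receptors reached 1 in any of the 4 libraries, while 63.3% of all rows did so in both controls. In both control libraries 11 receptors had 0 counts, and 18 had at most 1 count in each. The table holds a row only for genes with a count in some library, so 0 in both controls means that a receptor was seen in a risperidone library.

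**Figure D1:**
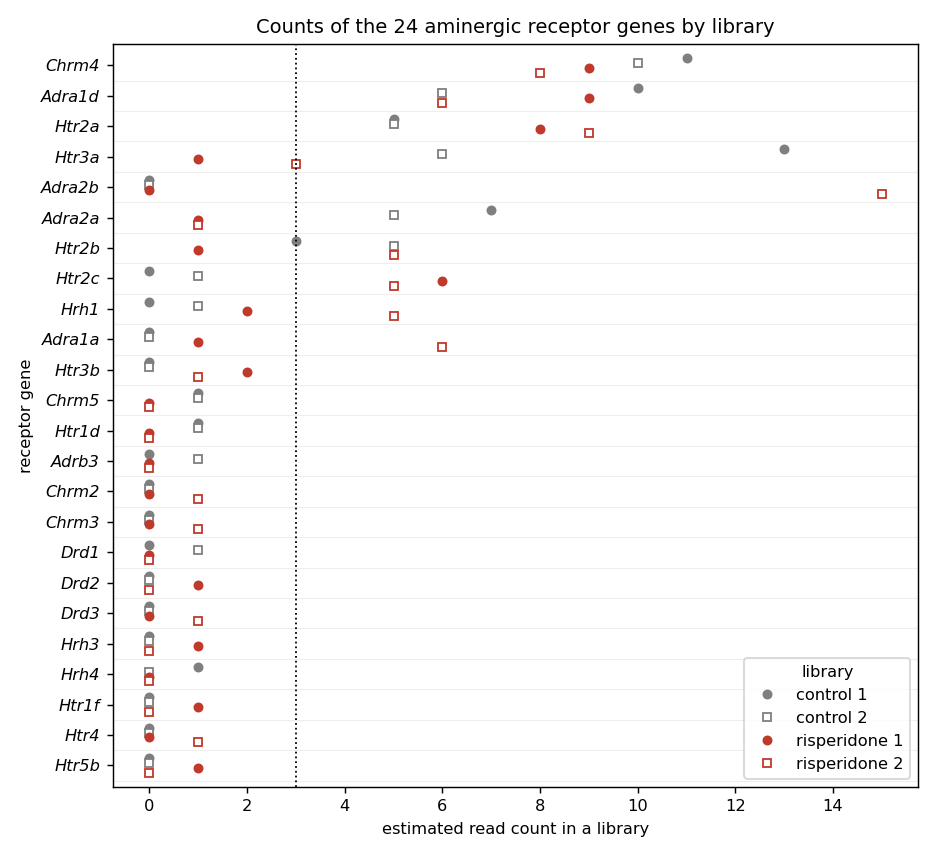
Estimated read counts (x axis) of the 24 aminergic receptor genes (y axis, ordered by their sum) in the 2 control libraries (grey) and the 2 risperidone libraries (red); the dotted line marks 3 counts, the limit for detection. No receptor exceeds 15 counts in any library, and 11 receptors have a single count in the 4 libraries together.

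Among the detected receptors, Htr3a had the highest mean control FPKM, while Chrm4 had the most control counts (21 against 19 for Htr3a). Htr3a (NCBI Gene 15561, chr9:48899213-48911152 in RefSeq GRCm38.p6, as are the coordinates that follow) had 13 and 6 counts in the controls, or 0.41 and 0.20 FPKM, with a mean of 0.305 ± 0.149 FPKM (SD, n = 2). Chrm4 (12672, chr2:91922189-91929835), a Gi-coupled muscarinic receptor, had 11 and 10 counts and 0.225 ± 0.0212 FPKM. Adra1d (11550, chr2:131545357-131562497), a Gq-coupled adrenergic receptor, had 10 and 6 counts and 0.220 ± 0.0707 FPKM. These 3 levels overlapped from library to library, so their order was not resolved.

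Htr2a (15558, chr14:74640874-74706859), the Gq-coupled serotonin receptor to which risperidone binds most tightly, had 5 counts in each control library and 0.11 FPKM in each. Adra2a (11551, chr19:54045259-54048982), the Gi-coupled adrenergic receptor that restrains fat breakdown, had 7 and 5 counts and 0.105 ± 0.0212 FPKM. Both lay below the lowest control value of Adra1d in FPKM, and Htr2a and Adra2a overlapped with each other. In counts, the exact Poisson intervals of the control sums overlapped throughout: 19 counts with 11.4 to 29.7 for Htr3a, 21 with 13.0 to 32.1 for Chrm4, 10 with 4.80 to 18.4 for Htr2a and 12 with 6.20 to 21.0 for Adra2a. These intervals cover counting error only.

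No other receptor had more than 3 counts in both control libraries. Htr2b, a Gq-coupled serotonin receptor, had 3 and 5 counts, and its gene lies within Psmd1, a proteasome subunit gene on the opposite strand at 66.3 to 78.0 FPKM. Chrm5 and Htr1d had 1 count in each control library and 0 in each risperidone library. Chrm5 overlaps Aven on the opposite strand, which stood at 5.83 to 10.4 FPKM, and the sources used here do not say whether the counting used strand. The overlaps are those of whole gene spans, not of exons. Whether reads of Htr2b and Chrm5 came from their partners was not tested. Among the detected receptors, Chrm4 shares 31 bases with Mdk, which had at most 0.19 FPKM. Htr3a overlaps Gm32335 by 8442 bases, and Adra1d overlaps Gm39938 by 13862 bases and Gm14285 by 722. Gm32335, Gm39938 and Gm14285 had no row, so their levels are unknown.

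Dopamine receptors, the class with which antipsychotics are most often linked, had 3 counts in all: Drd1 had 1 count in control library 2, Drd2 1 count in risperidone library 1 and Drd3 1 count in risperidone library 2. The beta adrenergic receptor Adrb3, which drives fat breakdown in mature adipocytes, had 1 count in control library 2. Such values set only a limit, since 0 counts in a control library allow up to 3. Hrh4 shows how little a level means at this depth: its single count, in control library 1, came out at 0.16 FPKM, above the 0.11 FPKM that 5 counts gave Htr2a. The remaining single counts were those of Htr1f, Htr5b and Hrh3 in risperidone library 1 and of Htr4, Chrm2 and Chrm3 in risperidone library 2.

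Grouped by amine, serotonin receptors (9 rows) summed to 22 and 18 counts in the controls, adrenergic receptors (5 rows) to 17 and 12, muscarinic receptors (4 rows) to 12 and 11, histamine receptors (3 rows) to 1 and 1, and dopamine receptors (3 rows) to 0 and 1. Grouped by coupling, Gq-coupled receptors (8 rows) had 19 and 19 counts, Gi-coupled receptors (11 rows) 20 and 16, and the channel subunits 13 and 6, all from Htr3a. The 3 receptors coupled to Gs that had a row, Htr4, Drd1 and Adrb3, had 0 and 2 counts. The receptor transcripts of the control cells thus came almost wholly from Gq and Gi receptors and the channel.

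Other receptors were expressed in the same libraries. Of 28 receptors for lysophospholipids, prostaglandins, nucleotides, adenosine, endothelin and thrombin, a set chosen after the data were seen, 17 passed the detection limit in the controls and 9 stood at 1 FPKM or more in both. Of all rows in the table, 74.2% and 63.3% passed these limits. The highest of the set were the thrombin receptor F2r, at 76.8 ± 0.297 FPKM, and the lysophosphatidic acid receptor Lpar1, at 16.9 ± 0.750 FPKM (SD, n = 2). In bulk RNA, fewer cells expressing a receptor and less RNA in each cell cannot be told apart.

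**Figure D2:**
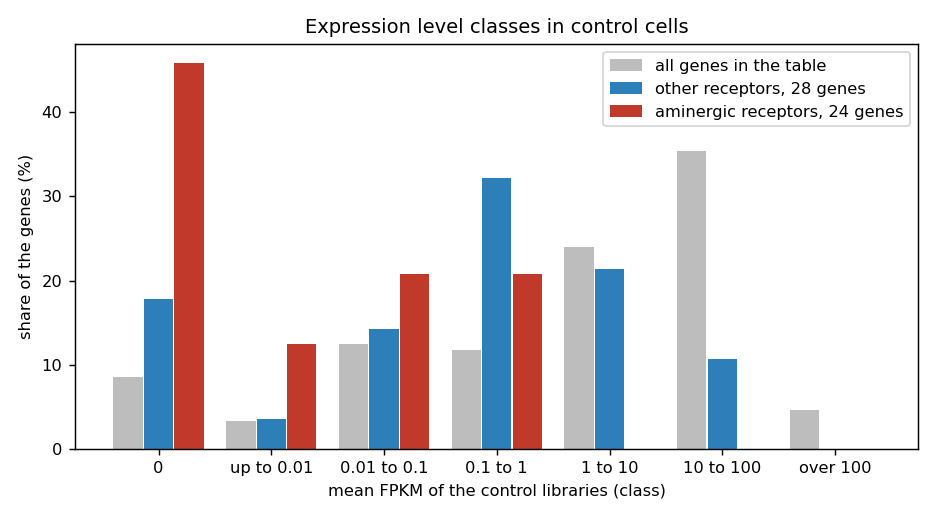
Share of genes in percent (y axis) in each class of mean control FPKM (x axis) for all 16051 genes in the table (grey), 28 other receptors (blue) and the 24 aminergic receptors (red). Aminergic receptors fill the classes up to 1 FPKM and no higher class, with 45.8% at 0 against 8.55% of all genes.

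Change after risperidone could be tested for 4 of the 24 receptors, those with at least 20 counts over the 4 libraries, and for 12061 genes in all. None of the 4 was called at an adjusted p under 0.05 by the edgeR quasi-likelihood F-test (Benjamini-Hochberg), beside 55.5% of all genes tested and 14.0% of the tested genes with 20 to 40 counts, the range in which all 4 lay. At an unadjusted p under 0.05 edgeR gave 1 receptor, Htr3a, beside 61.4% of all genes tested, and DESeq2 gave 0. The remaining 20 receptors had too few counts for the test.

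Htr3a, the channel subunit, had 13 and 6 counts in the control libraries and 1 and 3 in the risperidone libraries. The groups did not overlap, with both risperidone libraries under both controls and at or below the limit for detection. The log2 fold change was -2.08 ± 0.801 (SE), with an unadjusted p of 0.0334 and an adjusted p of 0.0581 (edgeR). The ratio of the summed counts, risperidone over control, was 0.211, with an exact 95% interval of 0.0521 to 0.634 for counting error. Without risperidone library 2 the adjusted p was 0.0310 (log2 fold change -2.999, edgeR), but that fit holds a single risperidone library with 1 count, which is assumed to vary like the controls. Without control library 1 the log2 fold change was -1.45, with an adjusted p of 0.252 (edgeR). Of the other alternatives, limma on log2(TPM + 0.1) called it lower (-1.70, adjusted p = 0.0360), as did a crossed replicate block (adjusted p = 0.0331, edgeR). With DESeq2 the log2 fold change was -2.14 with an unadjusted p of 0.106, and over the alternatives of every tool that gave an adjusted p it ran from 0.0310 to 0.252.

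Htr2a, a main target of the drug, had 5 and 5 counts in control and 8 and 9 in risperidone libraries. Both risperidone values were above both controls, by a few reads each. The log2 fold change was 0.85 ± 0.579, and the adjusted p was 0.244 (edgeR). In FPKM the levels were 0.110 in each control against 0.185 ± 0.0212 with risperidone (SD, n = 2), and the count ratio was 1.70, with an exact interval of 0.735 to 4.16 that includes no difference.

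Chrm4 and Adra1d had the smallest differences of the 4. Chrm4 had 11 and 10 counts in control and 9 and 8 in risperidone libraries, a log2 fold change of -0.20 ± 0.505 with an adjusted p of 0.757 (edgeR). Adra1d had 10 and 6 against 9 and 6 counts, a log2 fold change of 0.01 ± 0.590 with an adjusted p of 0.990 (edgeR). The intervals of the count ratios, 0.401 to 1.61 for Chrm4 and 0.432 to 2.03 for Adra1d, include no difference and do not show that either receptor was unchanged. The sign of the Adra1d value turned under other scalings and without single libraries.

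**Figure D3:**
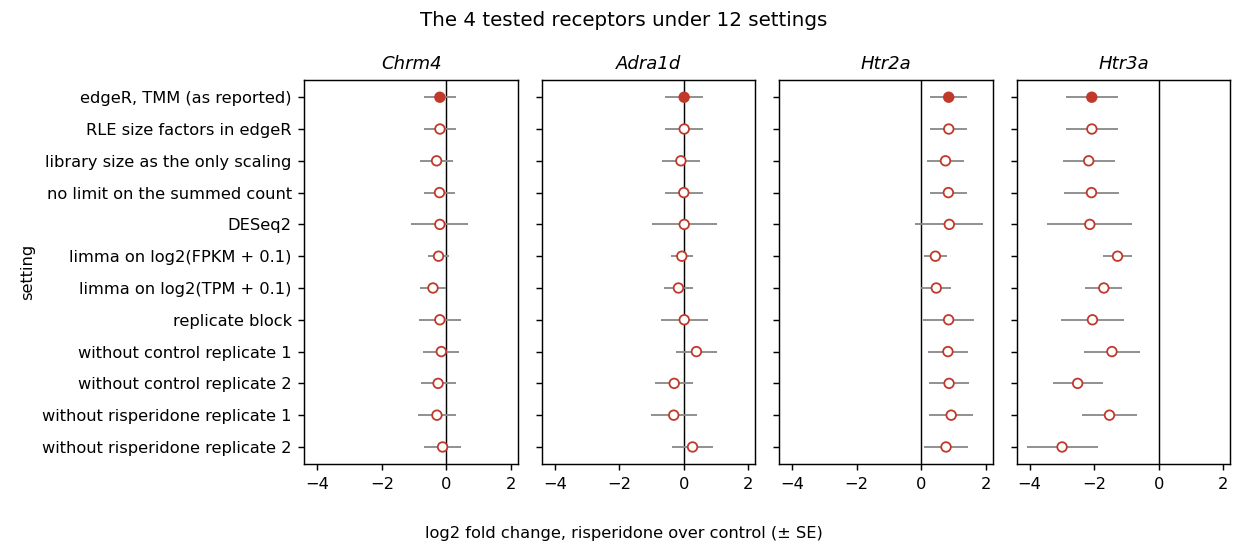
Log2 fold change, risperidone over control (x axis, bars ± SE), of the 4 receptors with enough counts to be tested, under the reported setting (filled) and 11 others (open, y axis). Htr3a lies below 0 in all 12, Htr2a above 0 in all 12, and Chrm4 and Adra1d lie within 1 log2 unit of 0.

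Among the receptors with too few counts, Adra2a was detected in control and not in risperidone libraries. It had 7 and 5 counts in the controls and 1 and 1 in the risperidone libraries, which did not overlap, and the count ratio was 0.167 with an exact interval of 0.0181 to 0.749. Htr2c (15560, chrX:146962464-147197277), a Gq-coupled serotonin receptor and drug target best known from neurons, had more counts after treatment, with 0 and 1 counts against 6 and 5, a ratio of 11 with an interval of 1.60 to 473.6. The summed counts of the neuron markers, of which Snap25, Rbfox3 and Slc17a6 had no row, were 1 and 2 in control and 7 and 4 in risperidone libraries, and their part in the Htr2c counts was not tested. When the limit on counts was lifted, edgeR called 0 of the 24 receptors beside 37.6% of all genes, with adjusted p = 0.0884 for Htr2c and 0.0920 for Adra2a. These were the 2 receptors at an unadjusted p under 0.05 in that fit.

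Adra2b (11552, chr2:127363179-127367221), a Gi-coupled adrenergic receptor, had 0 counts in both control libraries and in risperidone library 1, and 15 in risperidone library 2. Adra1a had 0 and 0 counts against 1 and 6, and Hrh1, a target of the drug, 0 and 1 against 2 and 5, so that all 3 were highest in risperidone library 2. Against a floor of 3 counts in each control library, the risperidone sum of Adra2b, 15 counts, was 2.50-fold that floor. That is a point value through 1 library and not a lower bound. The Poisson interval of 8.40 to 24.7 covers counting error only, not the spread from 0 to 15 counts between the risperidone libraries. The Adra1a sum of 7 counts, with an interval of 2.81 to 14.4, was not distinguishable from that floor, and the Hrh1 ratio of 7 had an interval of 0.900 to 315.6, which includes no difference. Risperidone library 2 was also the library with the 3462 kidney marker counts, and held 30 endothelial marker counts against 6 or 7 in each of the others. The part of those transcripts in the receptor counts was not tested. Htr3b, the second channel subunit, had 0 and 0 against 2 and 1 counts.

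Over the 24 receptors, the control libraries were both higher for 5 genes (Htr3a, Chrm4, Adra2a, Chrm5 and Htr1d) and the risperidone libraries for 5 (Htr2a, Htr2c, Hrh1, Adra1a and Htr3b), while 14 overlapped. Over all 16051 genes, 65.1% did not overlap. Of the tested receptors, 3 of 4 (75%) did not overlap, beside 79.5% of all genes tested and 48.6% of rows with 20 to 40 counts. Of the receptors not tested, 7 of 20 (35%) did not overlap, beside 21.6% of all rows with under 20 counts. After treatment 4 receptors had more than 3 counts in both libraries (Chrm4, Adra1d, Htr2a and Htr2c), and 3 were detected in both treatments.

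The 24 receptors together held 52 and 43 counts in the control libraries and 44 and 68 in the risperidone libraries, or 3.18 and 2.71 against 2.70 and 4.26 CPM. The groups overlapped, and without Adra2b the last value was 53 counts. The receptors that risperidone is known to bind, 9 of 13 of which had a row, summed to 22 and 18 counts in control and 28 and 48 in risperidone libraries, or 33 in the last without Adra2b. The 15 other receptors summed to 30 and 25 against 16 and 20, and without Htr3a to 17 and 19 against 15 and 17, which overlapped. Members of the known sites went different ways: Htr2a, Htr2c, Hrh1 and Adra1a had higher counts in both risperidone libraries, Adra2a lower counts in both, Adra2b counts in risperidone library 2 alone, and Adra1d, Drd2 and Drd3 overlapped. These sums rest on few reads and were not tested.

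**Figure D4:**
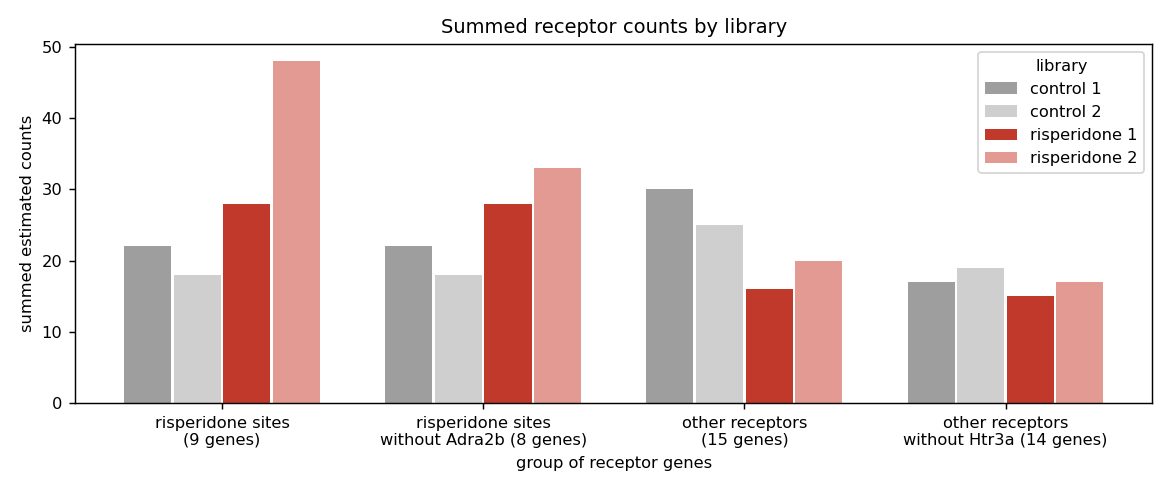
Summed estimated counts (y axis, from 0) in each of the 4 libraries for the 9 receptors that risperidone is known to bind, the same without Adra2b, the 15 other aminergic receptors, and these without Htr3a (x axis). The known sites sum to 22 and 18 counts in control and 28 and 48 in risperidone libraries, and the other receptors to 30 and 25 against 16 and 20, or 17 and 19 against 15 and 17 without Htr3a.

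By coupling, Gq receptors summed to 19 and 19 counts in control and 27 and 37 in risperidone libraries. The groups did not overlap, which was also true of 65.1% of all single genes. Htr2a, Htr2c, Hrh1 and Adra1a had higher counts in both risperidone libraries, Chrm5 lower counts in both, and Adra1d, Htr2b and Chrm3 overlapped. The larger sum, 37, was that of risperidone library 2, the library with the kidney markers. Gi receptors had 20 and 16 against 14 and 26, and Gs receptors 0 and 2 against 0 and 1. The channel subunits had 13 and 6 against 3 and 4. By amine, histamine receptors had 1 and 1 against 3 and 5 counts, through Hrh1 for the larger part, and muscarinic receptors 12 and 11 against 9 and 10. Serotonin receptors (20 and 24 counts with risperidone) and adrenergic receptors (11 and 28) overlapped with their controls. The sums by coupling and by amine rest on few reads and were not tested.

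The machinery downstream of these receptors was far better covered. In 8 lists of signalling genes, from amine handling to cyclic AMP targets, 112 genes were tested, of which 37 were higher and 25 lower after risperidone (edgeR). That is 55.4% called beside 55.5% of all genes tested, with a median log2 fold change of 0.05 against 0.01. The share called ran from 27.3% of the phosphodiesterases to 80% of the lipolysis genes, and these differences were not tested. Under other settings the list counts are to be read beside those of all genes, of which 3417 were higher and 3277 lower as reported, 2576 and 4183 with library size as the only scaling, 2456 and 4085 with limma on log2(FPKM + 0.1), 1573 and 5485 on log2(TPM + 0.1), 2677 and 2550 with DESeq2, and 1986 and 1969 or 2017 and 2029 without control library 1 or 2.

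Genes that make, store, take up or break down the amines were sparse as well, with 6 of 26 listed genes tested, of which 3 were higher and 0 lower. Maoa, the oxidase that degrades serotonin and noradrenaline, had 1441 and 1447 counts in control and 2085 and 2048 in risperidone libraries and rose by 0.62 ± 0.0479 on the log2 scale (adjusted p = 4.2e-05, edgeR). Slc18a2, the vesicular monoamine transporter, had 99 and 85 against 121 and 124 counts (0.52 ± 0.143), a call that was lost with DESeq2, with limma and without either control library (adjusted p = 0.0684 and 0.142, edgeR). In those fits 1 gene of the list was called higher.

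G protein subunits were abundant. Of 21 tested, 7 were higher and 3 lower (median 0.06). With library size as the only scaling, 5 were higher and 6 lower (median -0.040), and with limma on log2(TPM + 0.1) 2 and 8 (median -0.15), so the sign of the median turned. The median was 0.07 without either control library and 0.11 without risperidone library 2. Gnas, the Gs alpha subunit, was the most abundant, with 719 ± 0.792 FPKM in control and 813 ± 54.1 with risperidone (SD, n = 2). Its log2 fold change was 0.28, against 0.0325 with limma on log2(TPM + 0.1). Gnao1, a Go alpha subunit, rose from 31.8 to 50.6 FPKM (0.78 ± 0.0556), and Gnal, the Golf alpha subunit that serves dopamine and odorant receptors, from 0.330 to 0.700 FPKM (1.16 ± 0.285). The calls of Gnas and Gnal were lost on TPM and without either control library (adjusted p = 0.0714 and 0.0840 for Gnas and 0.108 and 0.0621 for Gnal without control libraries 1 and 2, edgeR), and that of Gnas also with limma on log2(FPKM + 0.1) and log2(FPKM + 0.5) (adjusted p = 0.0532 and 0.0570). Gng11, a gamma subunit, fell by 1.25 ± 0.117 on the log2 scale, with 227 and 233 counts in control and 90 and 90 in risperidone libraries. Gnaq and Gna12 were the other 2 that fell.

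On the cyclic AMP side, 4 of 14 cyclase, protein kinase A and EPAC genes were higher and 5 lower (median -0.21), against 1 and 7 on TPM (median -0.44) and 2 and 3 without control library 2, and the median was -0.088 without risperidone library 2. Adcy7, an adenylyl cyclase, had 30 and 37 counts in control and 9 and 13 with risperidone (-1.497 ± 0.418), a call that was lost without either control library (adjusted p = 0.0639 and 0.113, edgeR). Prkar2b, a regulatory subunit of protein kinase A, fell by 0.56 ± 0.0531, while Akap1, an anchor for the kinase, rose by 0.49 ± 0.050. Prkaca, the most abundant member and the kinase's catalytic subunit, had 92.8 ± 0.481 FPKM in control and 103 ± 1.58 with risperidone (log2 fold change 0.25, against 0.0037 on TPM), a call that was lost on TPM and without control library 2 (adjusted p = 0.0518, edgeR).

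Phosphodiesterases, which degrade cyclic nucleotides, had 1 of 11 tested genes higher and 2 lower (median -0.07), against 1 and 3 with limma (median -0.38 on TPM) or without control library 2. Pde1b rose by 1.03 ± 0.172, and Pde4b and Pde1a fell by 0.80 ± 0.0972 and 0.73 ± 0.0594. Pde7a, the most abundant, differed by -0.07 in counts (adjusted p = 0.381, edgeR), while limma on log2(FPKM + 0.1) called it lower at -0.33 (adjusted p = 0.0113, with a range of 0.00287 to 0.773 over the alternatives). In the phospholipase C and protein kinase C list, which Gq receptors feed, 8 of 17 were higher and 3 lower (median 0.28), against 2 higher and 6 lower with limma on log2(TPM + 0.1) (median 0.06) and 5 and 1 without control library 2, and the median was 0.15 without risperidone library 1. Plcb2 rose by 0.91 ± 0.212 and Prkcd, the most abundant, by 0.68 ± 0.0580, while Plcb1 fell by 0.86 ± 0.0930. The Plcb2 call was lost with limma on FPKM and TPM and without either control library (adjusted p = 0.0998 and 0.0978, edgeR), and its log2 fold change was 1.18 without risperidone library 1 and 0.59 without risperidone library 2.

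Receptor kinases, arrestins and RGS proteins switch receptors and G proteins off. Of 15 tested, 2 were higher and 4 lower (median 0.02), against 1 and 2 with DESeq2 or without either control library, and the median turned to -0.15 without risperidone library 1. Rgs2, which shuts off Gq, fell from 2059 and 2091 to 668 and 701 counts (-1.498 ± 0.0577, adjusted p = 3.9e-06, edgeR). Rgs4 had 27 and 27 counts in control and 10 and 7 with risperidone (-1.55 ± 0.437), a call that was lost with DESeq2 and without either control library (adjusted p = 0.0812 and 0.0864, edgeR), and Rgs17 had 35 and 41 against 116 and 116 (1.71 ± 0.183). Grk5, the most abundant, had 52.4 ± 0.962 FPKM in control and 53.6 ± 0.0212 with risperidone and was not called (log2 fold change 0.10, adjusted p = 0.0995, edgeR), but was called higher without risperidone library 2 (0.12, adjusted p = 0.0388, edgeR).

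Of 23 CREB family and cyclic AMP-induced genes, 11 were higher and 5 lower (median 0.20), but 3 were higher and 5 lower without either control library, 5 and 7 with limma on FPKM and 4 and 8 on TPM, and the median was 0.04 without risperidone library 2. Dusp1, an early response phosphatase, had 952 and 936 counts in control and 134 and 173 with risperidone (-2.52 ± 0.0942), whereas Nr4a3, an orphan nuclear receptor, had 5 and 5 against 21 and 16 (1.96 ± 0.507), a call that was lost with limma and without either control library (adjusted p = 0.0714 and 0.0688, edgeR). Ep300, the coactivator and most abundant member, fell by 0.55 ± 0.0589. Pck1, a gluconeogenic enzyme, was called higher (5.32 ± 1.77) on 342 counts in risperidone library 2 against 9, 0 and 3 in the others, and stood at -0.46 without that library, which is the library with the kidney markers.

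Adrenergic lipolysis, the pathway that beta receptors drive in fat cells, had 5 tested genes, of which 1 was higher and 3 lower, with a median of -1.08, against 0.087 over 9 genes with no limit on counts, -0.57 at a mean of at least 1 FPKM (1 higher, 2 lower) and -0.75 with limma on log2(FPKM + 0.5). Lipe, hormone-sensitive lipase, had 352 and 304 counts in control and 146 and 137 with risperidone (-1.11 ± 0.109). Fabp4, a fatty acid carrier, fell by 1.08 ± 0.132, and Plin1, which coats lipid droplets, had 9 and 14 against 1 and 1 counts (-3.28 ± 0.763). Pnpla2, the lipase that acts first on triglyceride, was the gene called higher, and 0 genes of the list were called higher with limma on FPKM or TPM or without control library 1. Summed adipocyte markers, which include Fabp4 and Plin1, stood at 377.1 and 431 FPKM in control and 264.6 and 275.5 with risperidone. That sum lay mostly in Lpl (234.1 and 250.3 against 192.0 and 190.9 FPKM) and Fabp4 (130.1 and 168.7 against 59.51 and 71.18). Pparg did not fall, with 12.51 and 11.41 against 12.78 and 12.47 FPKM. Summed fibroblast markers stood at 566.3 and 562.2 against 930.5 and 899.8 FPKM. Col1a1 made the largest part of the fibroblast sum (379.8 and 368.3 against 714.6 and 674.2 FPKM). Dlk1 (30.38 and 32.85 against 81.7 and 83.28), Thy1 (35.81 and 36.71 against 70.36 and 70.38) and Ly6a (1.93 and 1.84 against 2.49 and 5.58) also stood higher. Col3a1 (104.9 and 109.2 against 49.3 and 53.8) and Pdgfra (13.47 and 13.34 against 11.95 and 12.56) of the same list stood lower. The part of the adipocyte and fibroblast markers in the lipolysis values was not tested.

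**Figure D5:**
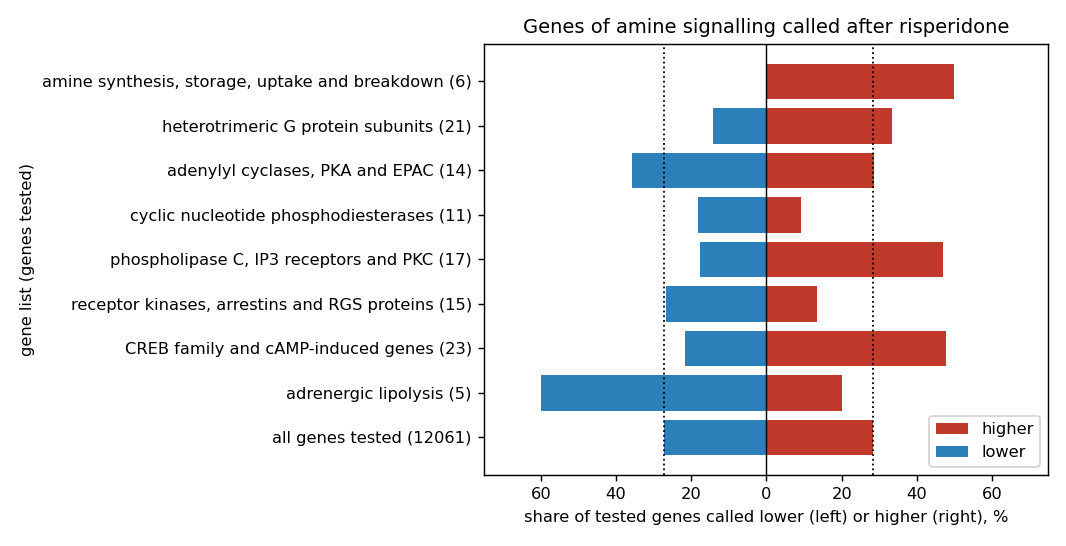
Percent of tested genes called lower (blue, left) or higher (red, right) after risperidone (x axis) in each of the 8 signalling lists (y axis, number of genes tested in brackets); dotted lines mark the shares over all 12061 genes, 27.2% lower and 28.3% higher. Adrenergic lipolysis has 3 of 5 genes lower, and phospholipase C and protein kinase C 8 of 17 higher (2 of 17 with limma on log2(TPM + 0.1)).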

How the data were processed

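The mRNA libraries were run on an MGISEQ-2000 sequencer, and the authors filtered the reads by quality and sequence content. The submitters' processing notes name Bowtie2, RSEM, DESeq2 and GRCm38.p6, without tool versions. The authors deposited an estimated count (expected count) without further normalization, an FPKM value computed on the DC.TOM platform and a TPM value for each gene and library. Mean columns of each treatment, made by the authors, were not used. Estimated counts were rounded to whole numbers, and the 12061 genes with at least 20 counts over the 4 libraries were tested with edgeR 4.0.16 in R 4.3.3 (TMM, quasi-likelihood F-test, two-sided, Benjamini-Hochberg over all genes tested, threshold 0.05). Standard errors were taken as |log2 fold change| over √F. P-values measure the spread between pooled libraries only. Fold changes from limma 3.58.1 are on the log2(value + 0.1) scale, which understates those of low genes. DESeq2 1.42.0 was an alternative, and gave no adjusted p for Htr3a. Count ratios are adjusted for library size, with exact conditional 95% intervals. The scripts were tested on simulated data. Receptor coordinates come from RefSeq, GRCm38.p6.

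The receptors, lists and tests were chosen with earlier results of these data known. All receptor rows are described. Of each signalling list, the 3 called genes with the largest absolute log2 fold change and the most abundant gene are named, except for 2 genes that are not reported here. Gnaq, Gna12 and Pnpla2, and the other receptors, were chosen after their values were seen. Alternatives were other scalings, count and FPKM limits, DESeq2, limma on FPKM and TPM, a replicate term and each library left out.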

Additional observations from a re-analysis of the deposited data

How the results depend on the processing

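The number of receptors detected in the controls, 5, became 8 with any count above 0, 1 with at least 10 counts and 0 with at least 1 FPKM, and 5 to 6 with single control libraries. The number called lower, 0, became 1 (Htr3a) with limma on log2(TPM + 0.1) and with the crossed replicate block, and ranged from 0 to 1 with each library left out. Over these alternatives the adjusted p of Htr3a without single libraries ran from 0.0310 to 0.252. A mean of at least 1 FPKM left no receptor to test. Of the signalling genes, 37 higher became 22 with limma on log2(FPKM + 0.1) and on log2(FPKM + 0.5), 12 on log2(TPM + 0.1) and 7 with a minimal absolute log2 fold change of 1, and 17 to 39 with each library left out (17 without control library 2, 18 without control library 1). The 25 lower became 41 on log2(TPM + 0.1), 8 with that minimum and 18 to 30 with each library left out. Medians of all genes moved to -0.23 in TPM, where 1573 were higher and 5485 lower. The sign of Adra1d turned to -0.090 with library size as the only scaling, -0.061 and -0.029 with limma on FPKM (pseudocounts 0.1 and 0.5), -0.17 on TPM, -0.30 without control replicate 2 and -0.31 without risperidone replicate 1 (range -0.31 to 0.39 with each library left out), that of Grk5 to -0.0050 with library size and -0.11 on TPM, and that of Pck1 to -0.46 without risperidone replicate 2 (range -0.46 to 10.46). The cause was not tested. Of 435 values of 32 named genes, 381 kept direction and side of the threshold. Same-numbered libraries deviated with a correlation of -0.104 over 12061 genes, and nothing says what the numbers share. With the replicate block, 38 signalling genes were higher and 29 lower, and the adjusted p of Htr3a was 0.0595. The crossed pairing, added after the data were seen, gave 40 and 29, and 0.0331 for Htr3a. No receptor value rests on more than 15 counts in a library, and the smallest difference detectable there was not measured. Leaving out 1 library leaves a lone library that is assumed to vary like the other treatment.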
